A study of Mus musculus with 2 samples.

Results

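The Regnase, Roquin and tristetraprolin (TTP) genes and Khsrp encode proteins that bind and destroy inflammatory mRNAs. They were taken from a table of normalized values by gene symbol: Zc3h12a, Zc3h12b, Zc3h12c and Zc3h12d (Regnase-1 to Regnase-4), Rc3h1 and Rc3h2 (Roquin-1 and Roquin-2), Zfp36 (TTP), Zfp36l1, Zfp36l2 and Khsrp (KSRP). All 10 were among the 19829 genes of the table, and all 10 passed the filter on low values, at least 30 reads in at least 1 library, as did 15534 genes in all.

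Messenger RNA of whole kidneys was sequenced in 2 libraries, 1 per group, to ask how transcripts beyond Inmt differed between genotypes after acute kidney injury (AKI). The library WT+AKI came from wild-type mice and the library TG+AKI from Inmt transgenic (Inmt TG) mice, which overexpress Inmt, an indolethylamine N-methyltransferase, in proximal tubules. The mice were C57BL/6J or of the Inmt TG line with control littermates, and per the study's methods kidneys were taken at 14 weeks of age after ischemia–reperfusion in both groups. Both groups had received high-dose voclosporin, a calcineurin inhibitor, injected each day at 30 mg/kg over 2 weeks, between 8 and 10 weeks of age. The treatment field of both labels names no treatment, which the table cannot settle. The title of the TG+AKI sample also uses the words conditional knockout. Inmt was higher in TG+AKI, as given below, which is not what a knockout of Inmt would give. Whether the words refer to another gene cannot be told from the table. How many animals gave each library was not stated in the sources used here. Since each group is a single library, differences have no replicate check and carry no p-value. Every interval of a ratio between libraries is a 95% exact (Clopper-Pearson) interval on the reads, covers counting error only, and compares these libraries rather than the genotypes.

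The libraries held 38542764 reads (WT+AKI) and 36427421 reads (TG+AKI) in listed genes. Values are reads per 1000000 of a scaled library, so that 1 read equals 0.0236 in WT+AKI but 0.0302 in TG+AKI. Inmt itself, the transgene, was at 10.4 in WT+AKI against 402.8 in TG+AKI, in the direction of the label. All 8 proximal tubule markers were well above the filter in both libraries, which fits the labelled tissue. On the deposited scaling all 8 were at least 2-fold higher in TG+AKI, their summed value being 3008 in WT+AKI against 12773 in TG+AKI. When both libraries were scaled to equal total reads, Slc5a2 and Aqp1 fell short of 2-fold, with log2 ratios of 0.929 and 0.996. Of the 8 macrophage and neutrophil markers with a row, 7 were at least 2-fold lower in TG+AKI, with summed values of 163.3 and 61.0. However, 2 of the 8 passed the filter through WT+AKI alone. With at least 30 reads in both libraries 5 of 6 were at least 2-fold lower. Among all tested genes 11.5% were at least 2-fold lower and 7.35% at least 2-fold higher. The libraries thus also differed in the markers of several cell types, and in whole-kidney RNA fewer cells of a type and less RNA per cell cannot be told apart.

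The RNA-binding proteins described here act on the 3′ untranslated region (3′ UTR) of their targets. Regnases are endoribonucleases that cut at stem-loops with a pyrimidine–purine–pyrimidine loop, and Roquins bind the same kind of stem-loop and recruit the CCR4–NOT deadenylase. TTP family proteins and KSRP bind AU-rich elements, of which a U-rich nonamer is the classical TTP site, and likewise pass the mRNA to deadenylases or the exosome. In macrophages and T cells these families limit cytokine mRNAs, and Regnase-1 and TTP are known to act on their own transcripts.

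The motifs of both kinds are shown in the members' own 3′ UTRs, because the families' targets are defined by such sites. Sequences are given 5′ to 3′ as DNA, from GENCODE M21 on GRCm38 (mm10), in the longest annotated 3′ UTR of each gene. The first set holds the stem-loops, with the hairpin in capitals, defined as at least 5 Watson-Crick pairs closing a pyrimidine–purine–pyrimidine loop of 3 bases. Such a match is a description of the letters and not a measured binding site, and hairpins with bulges or G–U pairs were not searched.
Zc3h12a, chr4:125119066-125119086, minus strand: gttGATACACATTGTATCtct
Zc3h12a, chr4:125118884-125118904, minus strand: gttAGGCACCATGTGCCTgct
Zc3h12a, chr4:125118659-125118681, minus strand: gagATTTAAATATTTTAAATgaa
Zc3h12c, chr9:52113466-52113486, minus strand: aatCTGAACCATGTTCAGcaa
Rc3h1, chr1:160971657-160971677, plus strand: aatAACTTCTGTGAAGTTgcc
Rc3h2, chr2:37373806-37373826, minus strand: attAACTTCTGTGAAGTTgtt
Tnf, chr17:35199582-35199602, minus strand: catGTTTTCTGTGAAAACgga
Nfkbid, chr7:30428399-30428419, plus strand: ggtGATTTCTGTGAAATCgag

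The 3′ UTR of Zc3h12a, 856 bases long, held 3 hairpins, whereas 16.2% of the 1682 tested 3′ UTRs within 20% of its length held any. Zc3h12c held 1 in 4062 bases, and Zc3h12b and Zc3h12d held none in 596 and 2327 bases. Rc3h1 and Rc3h2 carried the identical hairpin of 15 bases, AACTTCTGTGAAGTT, and of 13492 tested 3′ UTRs only these 2 held it. Its central 9 letters, TTCTGTGAA, were picked as the longest stretch shared with the hairpins of Tnf and Nfkbid that have the same loop. Their presence in these 2 known Regnase and Roquin targets was thus set by that choice. Hairpins of Icos and Ier3, also on the target list used below, held the letters too, and 2.76% of all tested 3′ UTRs held them anywhere. Rc3h1 had 3 further hairpins, of which 2 overlapped in a TA repeat, and Rc3h2 had 1 further hairpin.

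The second set holds the AU-rich nonamer TTATTTATT, in capitals, which was found once in each TTP family gene and once in each Roquin gene.
Zfp36, chr7:28376953-28376977, minus strand: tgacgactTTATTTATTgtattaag
Zfp36l1, chr12:80108169-80108193, minus strand: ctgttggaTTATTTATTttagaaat
Zfp36l2, chr17:84184916-84184940, minus strand: tatttaacTTATTTATTatcttgtg
Rc3h1, chr1:160970045-160970069, plus strand: tttactcaTTATTTATTgagatgag
Rc3h2, chr2:37373289-37373313, minus strand: aagacattTTATTTATTttactctg

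The nonamer was therefore in 5 of the 10 members and the stem-loop in 4, beside 8.03% and 24.0% of all 13492 tested 3′ UTRs. Among tested 3′ UTRs of similar length (within 20%), a stem-loop was held by 16.2% for Zc3h12a. The same share was 50.5% for Zc3h12c, 69.6% for Rc3h1 and 60.3% for Rc3h2, so a stem-loop is common at those lengths. Of tested 3′ UTRs within 20% of each length, 4.12% held the nonamer for Zfp36, 9.21% for Zfp36l1 and 9.15% for Zfp36l2. For the much longer 3′ UTRs of Rc3h1 and Rc3h2 the shares were 24.6% and 20.9%. None of the 4 Regnase genes nor Khsrp held the nonamer in its longest 3′ UTR. Lcn2 and Havcr1, which encode the tubular injury proteins NGAL and KIM-1 and which the study connects with Regnase-2, held neither motif as defined here, in 232 and 965 bases. No match says only that these letters are not in these windows. The study's text numbers its Lcn2 stem-loop at positions past the end of this annotated 3′ UTR. A figure legend of the study gives positions that begin inside it and run past its end. Whether the bases searched include that site is therefore not known. For both genes the study reports mRNA stability, reporter and RNA immunoprecipitation experiments, which were not examined here.

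**Figure D1:**
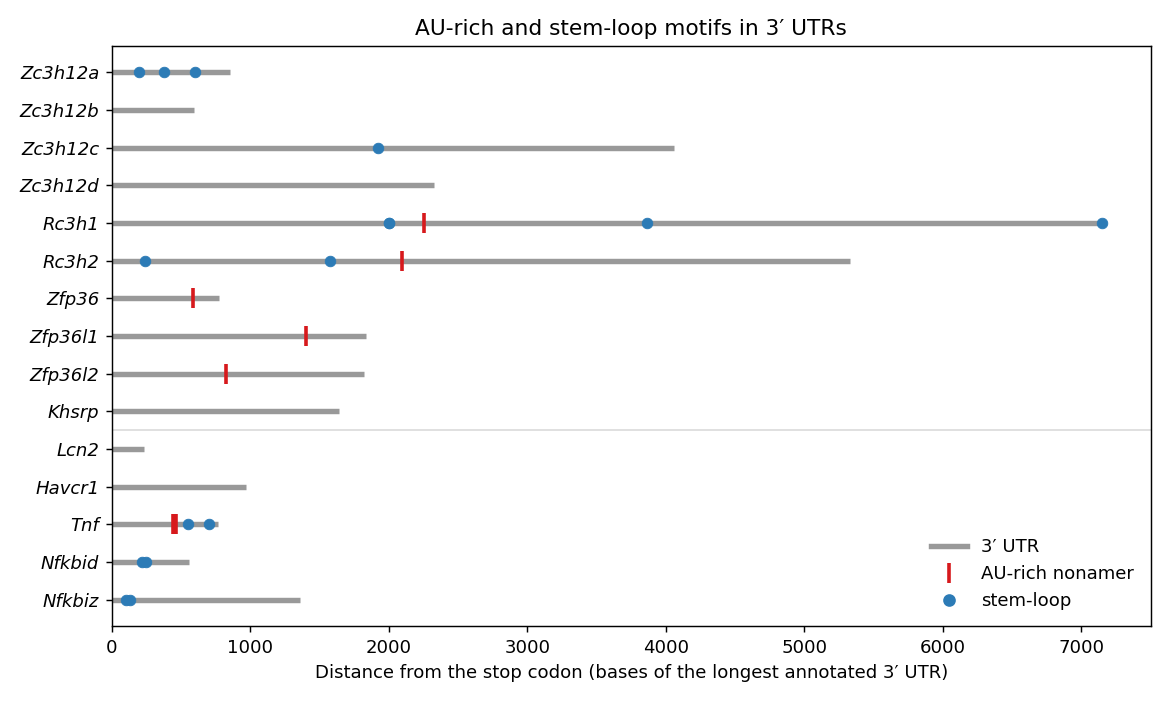
Positions of the AU-rich nonamer (red ticks) and of the stem-loop (blue circles) along the longest annotated 3′ UTR (grey bars) of the 10 members and of 5 transcripts linked to them; the horizontal axis is the distance from the stop codon in bases. Zc3h12a has 3 stem-loops in 856 bases, and each TTP family gene has 1 nonamer.

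The Regnase family did not differ as 1 group: Zc3h12a was lower in TG+AKI, Zc3h12c higher, Zc3h12d moderately lower, and Zc3h12b was not distinguishable between the libraries. The summed value of the 4 genes, most of it from Zc3h12c, was 43.1 in WT+AKI against 59.7 in TG+AKI. On the deposited scaling this was a ratio of 1.38 (1.30 to 1.47). Zc3h12a (NCBI Gene 230738, chr4:125118423-125127840), an RNase that limits Il6 and other cytokine mRNAs, was at 8.30 in WT+AKI against 2.69 in TG+AKI, from 352 and 89 reads. Its value was 3.09-fold lower in TG+AKI (interval 2.44 to 3.94), the lowest ratio of the 10 members, and 5.68% of tested genes had a lower ratio. Zc3h12a was thus 1 of the 2 members past a 2-fold difference.

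Zc3h12b (Gene 547176, chrX:95711678-95932637), Regnase-2, was at 1.49 in WT+AKI against 1.75 in TG+AKI, from only 63 and 58 reads. The ratio of TG+AKI to WT+AKI was 1.18 (0.811 to 1.71), so an increase of up to 1.71-fold and a decrease to 0.811 of the WT+AKI level both lay within counting error. No difference in either direction could thus be told from counting error, whereas ratios outside that interval lay beyond counting error for these 2 libraries. Zc3h12b was also the lowest member per length, at 0.185 per kilobase of exon in WT+AKI against 0.218 in TG+AKI, with 11.6% and 15.02% of listed genes with a gene model below it.

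Zc3h12c (Gene 244871, chr9:52111344-52168572), Regnase-3, which is known from macrophages, was at 29.9 in WT+AKI against 53.0 in TG+AKI, from 1269 and 1755 reads. This was the highest ratio of the members, 1.77 (1.65 to 1.90), and 90.0% of tested genes had a lower one. With equal total reads the ratio was 1.46, below that interval, so the size of the difference depended on the scaling. Zc3h12d (Gene 237256, chr10:7832470-7870396), Regnase-4, which is best known from lymphocytes, was at 3.42 and 2.23 (145 and 74 reads), a ratio of 0.653 (0.487 to 0.870). The 8 lymphocyte markers with a row had at most 25 reads each and were all under the filter, with summed values of 2.19 in WT+AKI against 3.65 in TG+AKI, and their part in the value of Zc3h12d was not tested.

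A ratio between genes of the same libraries does not depend on the scaling, and its 95% interval (Wald, on the log scale) again covers counting error only. On this measure the level of Zc3h12c relative to Zc3h12a was 5.47-fold higher in TG+AKI (4.29 to 6.98), and that of Zc3h12b relative to Zc3h12a 3.64-fold higher (2.38 to 5.57). Relative to Zc3h12b, Zc3h12c was 1.502-fold higher (1.04 to 2.16), with the lower end of the interval close to 1. The make-up of the family therefore differed: per kilobase of exon, Zc3h12c made up 52.8% of the summed Regnase level in WT+AKI against 82.0% in TG+AKI, while the share of Zc3h12a was 34.8% and 9.88%. Zc3h12d made up 10.1% and 5.79%, and Zc3h12b 2.24% and 2.31%.

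On the deposited scaling the Roquin genes differed little between the libraries. Rc3h1 (Gene 381305, chr1:160906418-160974978), the founding member whose mutation causes autoimmunity in sanroque mice, was at 56.3 in WT+AKI against 50.2 in TG+AKI, 1.12-fold lower (1.05 to 1.19). Rc3h2 (Gene 319817, chr2:37370069-37422903), a paralog with overlapping function, was at 51.9 and 39.1, which was 1.33-fold lower (1.24 to 1.42). Both intervals excluded 1, but neither gene reached 2-fold, and 40.4% and 26.6% of tested genes had a lower ratio than Rc3h1 and Rc3h2. With equal total reads the ratios were 0.737 (Rc3h1) and 0.623 (Rc3h2), so how close to equal they were depended on the scaling. Relative to Rc3h2, Rc3h1 was 1.18-fold higher in TG+AKI (1.08 to 1.30). The summed value of the pair was 108.3 in WT+AKI against 89.4 in TG+AKI.

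In the TTP family Zfp36l1 and Zfp36 were lower in TG+AKI, whereas Zfp36l2 was nearly equal on the deposited scaling (ratio 0.744 with equal total reads). Zfp36l1 (Gene 12192, chr12:80107754-80113013), also called BRF1 or TIS11b and induced by growth factors, was at 302.3 in WT+AKI against 99.98 in TG+AKI, from 12815 and 3311 reads. It was 3.02-fold lower (2.91 to 3.14), with 5.83% of tested genes at a lower ratio, and did not differ beyond counting from Zc3h12a in its ratio (ratio of ratios 1.02, 0.807 to 1.29). Zfp36l1 also had the highest level per length of the 10 members in both libraries, 101.1 and 33.4 per kilobase. Of its exon bases 55.9% overlap the lincRNA Gm26669 on the opposite strand, which has no row in the table, and whether the counting used the strand was not given in the sources used here.

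Zfp36 (Gene 22695, chr7:28376784-28380253), the immediate early gene of TTP itself, was at 83.4 in WT+AKI against 46.4 in TG+AKI, from 3536 and 1537 reads. It was 1.80-fold lower (1.69 to 1.91), short of 2-fold on this scaling but 0.460 of the WT+AKI level, past 2-fold, when both libraries were scaled to equal total reads. Zfp36l2 (Gene 12193, chr17:84183931-84187947), known from thymocyte and blood stem cell development, was at 60.0 and 54.0, only 1.11-fold lower (1.05 to 1.18). Relative to Zfp36l1, Zfp36l2 was 2.72-fold higher in TG+AKI (2.53 to 2.92), and relative to Zfp36 it was 1.62-fold higher (1.49 to 1.76). The summed value of the 3 genes was 445.7 in WT+AKI against 200.4 in TG+AKI, a ratio of 0.450 (0.437 to 0.462), and Zfp36l1 carried most of this difference. Per kilobase its share of the family was 71.1% in WT+AKI against 53.8% in TG+AKI, against 12.0% and 24.6% for Zfp36l2 and 16.9% and 21.5% for Zfp36.

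Khsrp (Gene 16549, chr17:57021051-57031522), a KH-domain protein that binds AU-rich elements and also takes part in miRNA maturation, was at 59.2 in WT+AKI against 65.0 in TG+AKI, from 2509 and 2154 reads. The ratio was 1.099 (1.04 to 1.16), and it turned to 0.908 with equal total reads and 0.994 with a median ratio of 1, so its direction depended on the scaling. Zc3h12b likewise went to 0.974 with equal total reads, well inside its interval. For the other 8 members the direction was the same under the 4 other settings tried (equal total reads, DESeq2 size factors, median ratio of 1, pseudocount of 1).

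**Figure D2:**
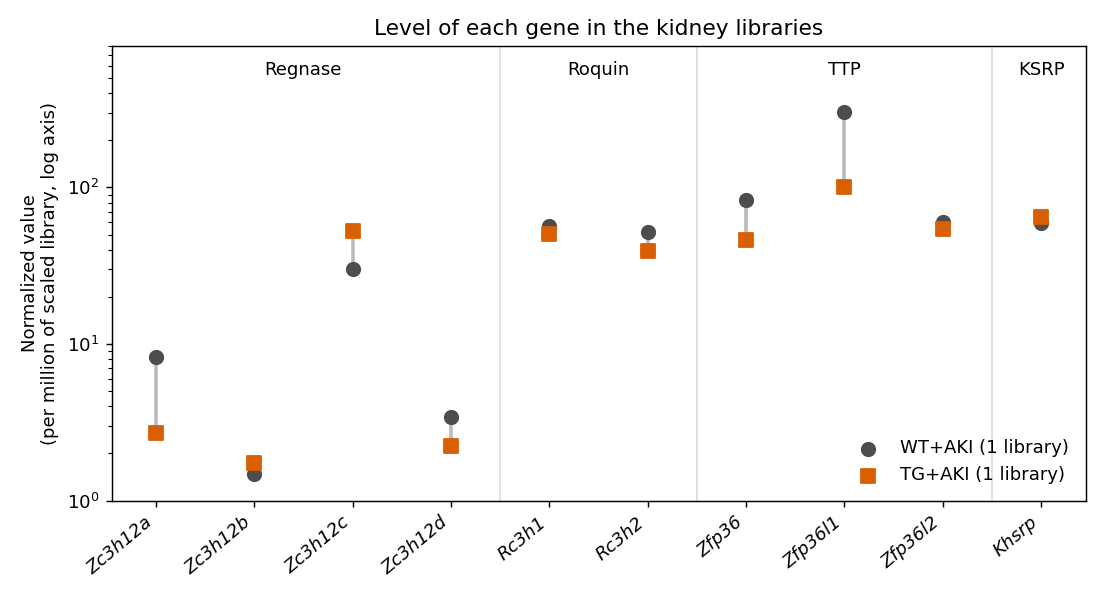
Normalized value (reads per 1000000 of the scaled library, log axis) of each member in WT+AKI (grey circles) and TG+AKI (orange squares), 1 library each, grouped by family. Zfp36l1 is at 302.3 and 99.98 and Zc3h12a at 8.30 and 2.69, whereas Zc3h12c is at 29.9 and 53.0.

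Counted together, 2 of the 10 members, Zc3h12a and Zfp36l1, were at least 2-fold lower in TG+AKI, where 11.5% of all tested genes were. None was at least 2-fold higher, against 7.35% of all genes. At 1.5-fold, 4 members were lower (Zc3h12a, Zfp36l1, Zfp36 and Zc3h12d, background 20.3%) and 1 was higher (Zc3h12c, background 15.5%). With equal total reads Zc3h12c, at 1.46, was short of 1.5-fold. The interval lay below 1 for 7 members, where it did for 38.4% of all genes, above 1 for 2 (background 35.4%), and held 1 for Zc3h12b. Of all genes past 2-fold, 38.9% were higher in TG+AKI, and 22.6% with equal total reads. The median log2 ratio of the members was -0.29, beside -0.03 for all tested genes. Small counts of this kind differ from the background by a few genes only, and nothing particular to the members is read from them.

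Ordered by ratio, some neighbouring members could not be separated beyond counting error. Zc3h12a and Zfp36l1 were lowest and did not differ from each other. Zfp36, Zc3h12d and Rc3h2 followed, and the neighbours within this run did not differ beyond counting, while Zfp36l1 and Zfp36 did (1.68, 1.57 to 1.81). This run is not a group, since Zc3h12d has few reads and a wide interval. The intervals of its ends, Zfp36 (0.524 to 0.591) and Rc3h2 (0.703 to 0.807), did not overlap. Rc3h1 and Zfp36l2 came next, then Khsrp and Zc3h12b, and Zc3h12c stood last, above Zc3h12b by the 1.502-fold given earlier.

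**Figure D3:**
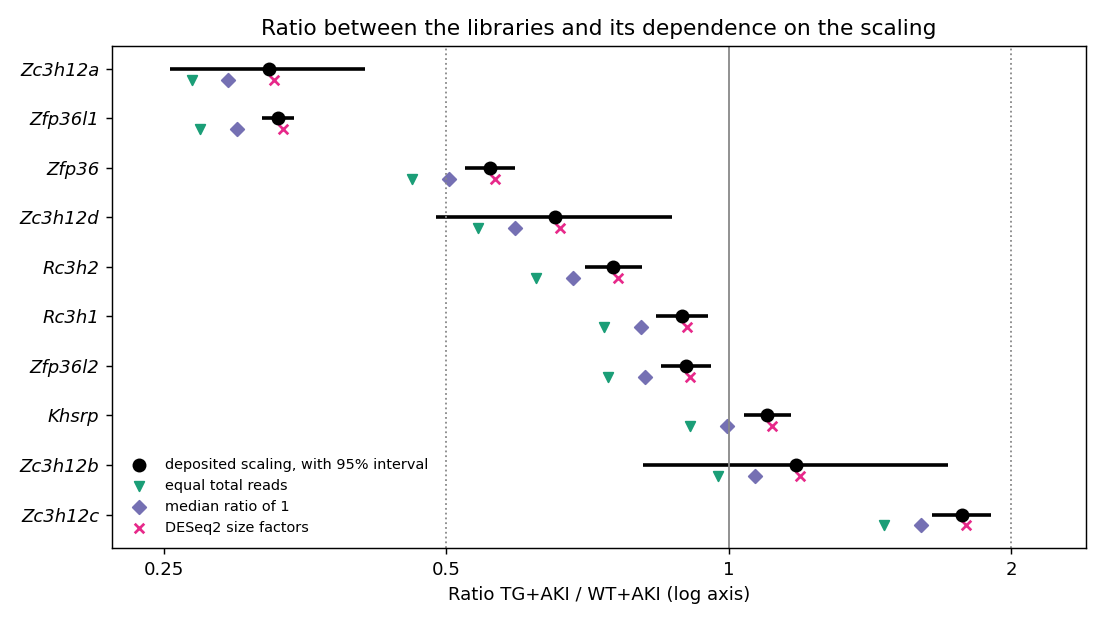
Ratio of TG+AKI to WT+AKI for each member (log axis) with its 95% counting interval (black), and the same ratio under 3 other scalings (coloured symbols); the solid line marks 1 and the dotted lines 2-fold. Zc3h12a and Zfp36l1 lie below 0.5 under every scaling drawn, Zc3h12c lies above 1, and Khsrp crosses 1.

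Per length, the order of the levels was led by the TTP family. In WT+AKI Zfp36l1 (101.1 per kilobase of exon) was followed by Zfp36 (24.0), Zfp36l2 (17.0) and Khsrp (13.7). The Roquins and Regnases stood lower, with Rc3h1 at 4.98, Zc3h12c at 4.37, Zc3h12a at 2.88, Rc3h2 at 2.65, Zc3h12d at 0.836 and Zc3h12b at 0.185. In TG+AKI Zfp36 (13.4) stood under Zfp36l2 (15.3) and Khsrp (15.1), and Zc3h12c (7.74) stood above Rc3h1 (4.44), whereas Zc3h12a was at 0.933. Zfp36 was thus measured at a level above 89.9% of the genes with a gene model in WT+AKI against 80.9% in TG+AKI. With the longest transcript in place of all exons, Rc3h2 (5.80) came above Rc3h1 (5.12) in WT+AKI, and Zfp36 (16.6) came above Khsrp (16.4) and Zfp36l2 (15.3) in TG+AKI, so neither order is settled.

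**Figure D4:**
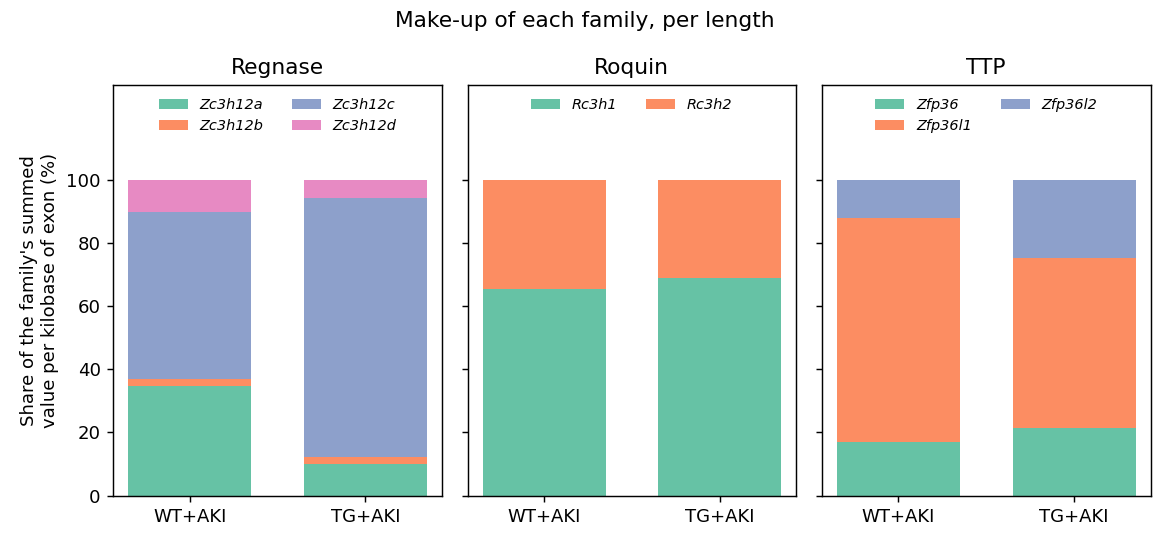
Share (%) of each gene in the summed value per kilobase of exon of its family, in WT+AKI and TG+AKI; each bar adds to 100%. Zc3h12c takes 52.8% of the Regnase bar in WT+AKI against 82.0% in TG+AKI, and Zfp36l1 takes 71.1% and 53.8% of the TTP bar.

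The targets of these proteins were examined by lists of genes named as targets in general knowledge of the field or, for Lcn2 and Havcr1, by the study. Of 19 known or proposed targets of Regnases and Roquins, 16 had a row and 13 passed the filter, 4 of them (Tnf, Ptgs2, Cxcl1 and Cxcl2) through WT+AKI alone. Genes that pass that way are mostly bound to come out lower, so counts are given also without the filter and for genes with at least 30 reads in both libraries, a setting chosen after seeing the data. Without the filter 10 of 16 were at least 2-fold lower in TG+AKI and 1 was higher (12.6% and 9.18% of all 19829 genes), with a median log2 ratio of -1.38. With 30 reads in both libraries 6 of 9 were at least 2-fold lower and none was higher (8.15% and 6.20% of 14178 genes), with a median of -1.12. Under the main filter the count was 10 of 13, beside 11.5% of all tested genes, and the median was -2.10. The largest differences were those of Havcr1, at 1168.8 in WT+AKI against 2.78 in TG+AKI, Lcn2, at 249.8 and 1.87, and Cxcl1, a neutrophil chemokine, at 44.0 and 0.544. At the other end, Tfrc, the transferrin receptor, was at 67.6 and 71.1 (ratio 1.05, 0.996 to 1.11), Ier3 at 34.4 and 35.5 (1.03, 0.954 to 1.11), and Egln3, an oxygen sensor, at 20.4 and 12.7 (0.621, 0.551 to 0.698). Lcn2 was thus 133.4-fold lower and Havcr1 420.7-fold lower in TG+AKI. The study had reported both as lower in the same data, so their place in these counts was known in advance. For Cxcl1 the study's text reports no effect of Regnase-2 on mRNA half-life or reporter. A figure legend of the study, however, lists the Cxcl1 3′ UTR among those suppressed. Zc3h12a is itself a member of this target list.

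Of 22 targets of AU-rich element binding proteins, 18 had a row and 16 passed, 5 of them (Tnf, Cxcl1, Cxcl2, Ptgs2 and Ccne2) through WT+AKI alone. Without the filter 10 of 18 were at least 2-fold lower and 1 was higher (12.6% and 9.18% of all 19829 genes), with a median of -1.22. With 30 reads in both libraries 4 of 11 were lower and 1 was higher (8.15% and 6.20% of 14178 genes), with a median of -0.76. Under the main filter the counts were 9 and 1 of 16, beside 11.5% and 7.35% of all tested genes, and the median was -1.66. Cxcl1, Lif (47.3 and 0.936), a cytokine of the interleukin-6 family, and Cxcl2 (6.16 and 0.211) had the lowest ratios. Vegfa, the endothelial growth factor, was higher, at 128.6 and 286.0 (ratio 2.22, 2.15 to 2.30). Ier3 came next, and Ccnd1, the cyclin D1 gene, was at 257.1 and 196.5 (0.764, 0.741 to 0.788). Cxcl1, Cxcl2, Ptgs2, Tnf and Ier3 are in both target lists, so the lists are not separate observations. Il6, Il2, Ctla4, Csf2, Il1a and Il10 were not analysed here.

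The 3′ UTR motifs were frequent among the tested targets, as such genes were partly defined by them. The stem-loop was found in 8 of the 13 tested Regnase and Roquin targets and the nonamer in 12 of the 16 tested AU-rich targets, beside 24.0% and 8.03% of 13492 tested 3′ UTRs.

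Regulators of the members were mixed. Of 19 such genes 18 passed, with a median of -0.11. Of these 3 were at least 2-fold lower and none at least 2-fold higher, beside 11.5% and 7.35% of all tested genes. Arid5a, which competes with Regnase-1 for stem-loops and stabilizes Il6 mRNA, had the lowest ratio, at 9.60 in WT+AKI against 1.48 in TG+AKI (6.49-fold lower). Ikbke, a kinase of the IKK family, was at 13.8 and 5.80 (2.39-fold lower), and Bcl10, the partner of the protease MALT1 that cleaves Regnase-1, was at 34.2 and 15.04 (2.27-fold lower). Higher were Mapk14, the p38 kinase upstream of TTP phosphorylation, at 86.8 and 125.3 (1.44, 1.38 to 1.51), Btrc, the ubiquitin ligase subunit that targets Regnase-1, at 19.2 and 27.1 (1.41, 1.28 to 1.55), and Usp10, a deubiquitinase, at 66.4 and 89.0 (1.34, 1.27 to 1.41). The study tested TTP, AUF1, TIA-1 and UPF1 by PCR in whole kidneys of wild-type mice and reported no expression of them. That assay and those mice differ from the sequencing and the AKI groups here. Among these factors Hnrnpd (AUF1) was at 68.9 and 59.2 (0.858, 0.810 to 0.909) and Tia1 at 36.7 and 38.6 (1.05, 0.976 to 1.13). Both libraries held at least 1278 reads of each, and likewise of Upf1, at 50.2 and 53.4 (1.06, 0.998 to 1.13). Zfp36 (TTP) had 3536 and 1537 reads.

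The machinery to which the members pass their targets was near equal in the libraries. Of 16 deadenylase, decapping and decay genes all passed, none reached 2-fold in either direction, and the median was 0.01 (-0.27 with equal total reads). Among all tested genes 11.5% were at least 2-fold lower and 7.35% at least 2-fold higher. Cnot6l (44.8 and 59.8; ratio 1.34), a catalytic deadenylase, Cnot11 (29.3 and 36.7; 1.25) and Cnot1 (120.7 and 136.9; 1.13, below 1 with equal total reads), the scaffold of CCR4–NOT, were highest. Edc4 (41.9 and 34.5; 0.822) and Dcp1a (22.7 and 18.9; 0.830) of the decapping complex and Cnot3 (33.0 and 29.7; 0.9005) were lowest. The whole range of this list was narrower than that of the Regnase family alone. Among 6 relatives of the members, Zc3hav1 (41.2 and 16.7; 2.46-fold lower), an antiviral CCCH protein, was the only one past 2-fold; N4bp1 (63.4 and 43.8; 0.690) and Fubp1 (109.8 and 97.4; 0.888) were also lower, and Nynrin (9.81 and 13.4; 1.37) was higher, while Khnyn (0.968) and Fubp3 (0.937) were near 1.

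Zfp36 is an immediate early gene, and the other immediate early genes were lower in TG+AKI as well. All 10 were lower, 9 of them at least 2-fold, beside 11.5% of all tested genes (Egr2 passed the filter through WT+AKI alone). Their median log2 ratio was -1.98 and their summed values were 622.6 and 125.7. Egr2 (12.5 and 0.362), Atf3 (27.2 and 1.81) and Btg2 (273.7 and 34.1) were lowest, and Fos (11.1 and 6.55), Ier2 (18.3 and 5.53) and Egr1 (97.1 and 28.7) were the least different. Zfp36, at 0.556, was thus close to Fos, at 0.591 (0.501 to 0.696), and differed less than the other 9. Their part in the values of Zfp36 and Zfp36l1 was not tested.

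Promoter motifs are shown for the members, as Egr1 and other immediate early factors differed between the libraries. In the 250 bases before each RefSeq start (GRCm38.p6) 7 motifs were searched on both strands: GCGGGGGCG and GCGTGGGCG (EGR), TGACGTCA and the TGACGT it contains (CRE), TGACTCA (AP-1), TTCNNNGAA (STAT) and, on the gene's strand only, TATAAA. The matches are in capitals, with positions counted back from the start.
Zfp36, EGR at -105, chr7:28379317-28379341, minus strand: gctacgccGCGGGGGCGcgtcccgg
Zfp36, STAT at -17, chr7:28379229-28379253, minus strand: agcctgacTTCTGCGAAccgacagt
Zfp36l1, TATA at -29, chr12:80113029-80113050, minus strand: ccaaatctTATAAAttgggctt
Rc3h1, AP-1 at -133, chr1:160906270-160906292, plus strand: ggggccggTGACTCAgagctttc
Zc3h12b, CRE at -158, chrX:95711512-95711533, plus strand: ttttacccTGACGTtagggcct

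Zfp36 was the only member with an EGR match, which 2.57% of 32851 promoters held, and it also held the STAT match (7.02% of promoters). Zfp36l1 held a TATA match (7.59%), Rc3h1 the AP-1 match (4.46%) and Zc3h12b the TGACGT match (6.47%). At least 1 window was searched for 9 of the members, with 2 for Zc3h12c. Zc3h12a, Zc3h12c, Zc3h12d, Rc3h2 and Khsrp held none of these letters in their windows. Zfp36l2 was not searched. The Zfp36 window and the second Zc3h12c window (chr9:52149364-52149613) lie inside the longer GENCODE models of these genes. The first Zc3h12c window and the Khsrp window overlap the models of their genes in part.

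Markers of cell types differed beside several members. Beside the lower Zc3h12a, Zfp36 and Zfp36l1 stand the macrophage and neutrophil markers. Of these, Cd68 (37.1 and 1.39), Itgam (19.9 and 1.06) and Cd14 (25.2 and 2.60) were lowest. At the upper end were Adgre1 (10.9 and 4.14), S100a8 (0.967 and 0.393) and Csf1r (37.5 and 43.0, higher except with equal total reads). Beside the higher Zc3h12c stand the 8 proximal tubule markers, from Slc5a2 (236.5 and 544.7), Aqp1 (431.1 and 1040.2) and Cubn (287.3 and 740.1) to Lrp2 (644.3 and 2753.8), Slc5a12 (140.2 and 648.4) and Slc34a1 (764.5 and 5396.7). The 7 endothelial markers had a median log2 ratio of 0.07 (-0.21 with equal total reads) and summed values of 449.7 and 443.2, between Flt1 (136.4 and 96.7), Pecam1 (81.5 and 59.6) and Cdh5 (39.98 and 37.1) at the low end and Tek (54.0 and 61.9, higher except with equal total reads), Ehd3 (31.7 and 41.6) and Kdr (58.5 and 96.4) at the high end. The part of cell composition in the members' values was not tested.

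**Figure D5:**
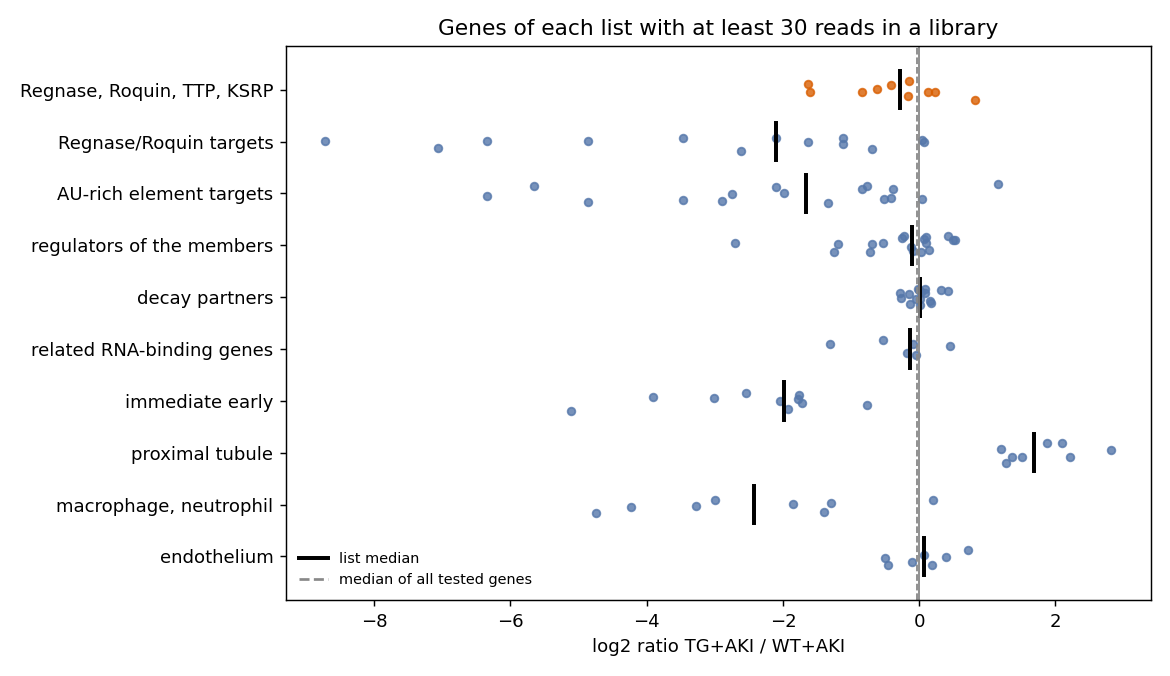
log2 ratio of TG+AKI to WT+AKI for the genes of each list with at least 30 reads in a library; each point is a gene, the black bar is the list median and the dashed line the median of all tested genes, with vertical scatter for legibility only. The members spread from -1.63 to 0.82 around a median of -0.29, while the target lists have medians of -2.10 and -1.66 under this filter and -1.12 and -0.76 with 30 reads in both libraries.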

How the data were processed

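Whole-kidney RNA of WT+AKI and TG+AKI was compared, 1 library per group, grouped by the library names in the labels. Libraries were made with a TruSeq Stranded mRNA kit. Per the study's methods, STAR 2.7.3a aligned the reads, HTSeq counted them and DESeq2 normalized the counts; the submitters' processing notes also name edgeR, Cufflinks 2.2.1, FastQC and mm10. The annotation and the strand setting are not given in the sources used here. The deposited table holds normalized signal values per gene. In both columns 100% of values were whole multiples of the smallest (tolerance 0.01 read), so whole reads were recovered, and the steps equalled those of edgeR after TMM scaling (a trimmed mean of log ratios), not those of the DESeq2 size factors.

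Ratios were taken between the deposited values, with exact 95% conditional binomial intervals on reads; ratios of ratios carry Wald intervals on the log scale. Genes with at least 30 reads in a library were tested, 15534 in all. A count model was not run across conditions, since 1 library per group leaves no residual degrees of freedom. The members and the 10 other lists were chosen with earlier results of these data known. Named genes are the members, Inmt, Lcn2, Havcr1, Hnrnpd, Tia1, Upf1 and, in each list, the 3 highest and 3 lowest ratios. Ptgs2, Tnf, Nfkbid, Icos, Ccne2, Khnyn and Fubp3 appear for sequence, overlap or completeness. Motifs and promoter letters were chosen after values were seen. Gene models are GENCODE M21 (17787 of 19829 symbols, 89.7%), promoters RefSeq. At most 0.415% of the 100-base words of a member occurred in another gene. The procedures were tested on simulated data. Alternatives were equal total reads, DESeq2 size factors, a median ratio of 1 over values of at least 100, a pseudocount of 1, no read filter, at least 300 reads, 1.5-fold, and genes of 1 list only; at least 30 reads in both libraries was added after the data were seen. The analysis used R 4.3.3, edgeR 4.0.16, DESeq2 1.42.0, Python 3.11.15, scipy 1.17.1 and matplotlib 3.10.9.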

Additional observations from a re-analysis of the deposited data

How the results depend on the processing

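No paired analysis was possible because each group has 1 library and the labels carry no replicate numbers; for the same reason no library could be left out. Scaling shifted the median log2 ratio of all genes by -0.27 (equal total reads), -0.14 (median ratio of 1) and 0.02 (DESeq2 size factors), and the share of 2-fold differences that were higher in TG+AKI was 38.9% as deposited, 22.6%, 29.9% and 40.2%. With equal total reads 750 genes were at least 2-fold higher, 1 member had an interval above 1, and list medians were -0.56 (members), -1.93 (AU-rich targets), -0.38 (regulators), -0.41 (relatives), -2.26 (immediate early) and 1.41 (proximal tubule); those of the decay partners (-0.27) and endothelium (-0.21) reversed, as did the log2 ratios of Khsrp (-0.14), Cnot1 (-0.094), Csf1r (-0.076) and Tek (-0.080). With a median ratio of 1 these were 1 member above 1, and -0.43 (members), -0.25 (regulators), -0.28 (relatives), 1.54 (proximal tubule), -0.14 (decay partners, reversed), -0.075 (endothelium, reversed) and -0.0082 (Khsrp, reversed). These shifts follow from the scaling itself, which moves all genes alike. With a pseudocount of 1, which shrinks low values, 1150 genes were at least 2-fold lower, and medians were -1.33 (Regnase and Roquin targets), -0.83 (AU-rich targets) and -1.65 (macrophage and neutrophil). Without the read filter 1821 genes were at least 2-fold higher, with medians of -1.38 and -1.22 for the target lists; with at least 300 reads 896 were lower and 641 higher, and the AU-rich targets were at -0.76 over 11 genes. With at least 30 reads in both libraries, chosen after seeing the data, 1155 genes were lower and the target lists were at -1.12 and -0.76. At 1.5-fold 3153 genes were lower and 2410 higher, and 4 members lower and 1 higher. With genes of 1 list only the medians were -0.16 (8 members), -1.12 (7 Regnase and Roquin targets) and -1.33 (9 AU-rich targets). Of 66 named genes under 4 settings, 160 values stayed within the counting interval of the main value, 99 left it, and 5, counted only where that interval excluded 1, changed sign; another 9 sign changes were in genes whose interval held 1. The depth limits Zc3h12b most, at 63 and 58 reads.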

Other observations

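Across all tested genes, the AU-rich nonamer in the 3′ UTR was set beside the ratio of TG+AKI to WT+AKI, a description chosen after the values were seen. The 12409 genes without the nonamer had a median log2 ratio of -0.03, and 11.3% of them were at least 2-fold lower. The 848 genes with 1 nonamer had a median of -0.08 with 11.3% at least 2-fold lower, the 146 genes with 2 had -0.11 and 16.4%, and the 89 genes with 3 or more had -0.06 and 15.7%. The groups also differ in 3′ UTR length, with medians of 1094, 2258.5, 2745 and 2929 bases. By length class, the gap was widest in 3′ UTRs over 2000 and up to 4000 bases. There 13.2% of 379 genes with a nonamer and 8.91% of 2549 without were at least 2-fold lower. The shares with and without it were 14.8% (of only 54 genes) and 13.4% up to 500 bases, and 15.7% and 12.7% up to 1000. They were 13.7% and 11.6% up to 2000 bases, and 7.78% and 5.16% over 4000, where the medians were near equal (0.010 and 0.015). The stem-loop showed the opposite order, with 12.1% of 10249 genes without it at least 2-fold lower, 9.09% of 2453 genes with 1 and 9.24% of 790 genes with 2 or more; their median 3′ UTR lengths were 925, 2034 and 3336 bases, and no comparison at matched length was made. Longer 3′ UTRs went with smaller shares of 2-fold differences also without the nonamer, from 13.4% of 3270 genes with up to 500 bases to 5.16% of 833 genes over 4000 bases. The causes of these differences were not tested.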
